A study of Homo sapiens with 4 samples.

Results

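The genes described here are 47 genes of glycolysis and of the cellular response to low oxygen, taken by symbol from the gene-level tables of an RNA-seq experiment in ES-2 cells. They cover the enzymes that turn glucose into lactate, the transporters at both ends of that route, the subunits and sensors of the hypoxia-inducible factors (HIF), and genes known as HIF targets. All 47 were among the 19626 genes of the tables, and 44 were among the 12157 genes tested, which had an RPKM above 1 in at least 1 library. The 3 that fell below this limit were EGLN3, CA12 and PPP1R3C.

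ES-2 is an established human ovarian cancer line that carries an endogenous YAP1-MAML2 (YM) fusion and was the one line sequenced. The cells were transduced with pLKO.1 lentivirus that expressed either a nontargeting shRNA (shCtl, 2 biological replicates) or an shRNA against MAML2 (shM2-3, 2 biological replicates), by infections of 8 h on consecutive days. RNA was taken 96 h after the first infection according to the labels, and non-strand-specific libraries were read as paired ends of 150 bases. Both times are those of the labels, and the authors' published methods state shorter infections and a shorter transduction. shM2-3 acts on MAML2 and on the fusion transcript together, so the groups differ in both. Both groups were grown in the same serum-containing medium, and no hypoxic or glucose-deprived culture is named in the labels. The libraries of a group are labelled biological replicates, so the p-values below measure the spread between such replicates of 1 line under 1 shRNA.

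Glycolysis splits glucose into pyruvate in a hexose phase that spends ATP and a triose phase that yields it, and many tumor cells reduce much of the pyruvate to lactate and export it even when oxygen is present. HIF is a dimer of an oxygen-regulated alpha subunit and the constant subunit ARNT. When oxygen is plentiful, prolyl hydroxylases of the EGLN family mark the alpha subunit for the VHL ubiquitin ligase, and when it is scarce the dimer binds short hypoxia response elements and activates glucose transporters, glycolytic enzymes and genes for vessel growth, mitophagy and pH control. The main control of the alpha subunits acts on protein, which RNA-seq does not measure.

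The 4 libraries held 20051083 to 23978660 estimated counts, and the chi-square per degree of freedom between replicates, which would be near 1 for sampling noise, was 3.51 in shCtl and 4.09 in shM2-3. MAML2, the targeted gene, went from 1436 and 1402 counts to 634 and 553 after shM2-3, a log2 fold change of -1.40 (SE 0.0688, edgeR adjusted p = 5.18e-10). Here and below, a log2 fold change is shM2-3 against shCtl on counts scaled with TMM factors, and an edgeR adjusted p comes from the quasi-likelihood test with Benjamini-Hochberg adjustment over all 12157 genes. A gene passed the test at an adjusted p of 0.05 or less, and was called where its fold change was also 2 or more. RPKM values, which scale counts by transcript length and by library, are those of the authors and carry no TMM scaling. On that scale, with 0.1 added before the log, the median gene lay at -0.07, so small RPKM differences can point the other way from the fitted fold change. Of the marker genes for ovarian carcinoma, the keratins KRT7, KRT8 and KRT18 were abundant, with 269 and 267 RPKM of KRT7 in shCtl and 108 and 107 in shM2-3. PAX8, NAPSA, WT1, MSLN, EPCAM and CDH1 stood below 0.5 RPKM in all 4 libraries, NAPSA being a usual marker of the clear cell type named in the labels. The summed RPKM of 6 fibroblast markers was 0.910 and 1.10 in shCtl and 1.72 and 1.66 in shM2-3, with COL3A1, DCN, LUM and POSTN under 0.1 throughout. PDGFRB, the 1 fibroblast marker tested, was called higher, from 0.482 and 0.662 to 1.201 and 1.37 RPKM (log2 fold change 1.23). That of 5 leukocyte markers went from 58.3 and 57.4 to 41.1 and 40.02, nearly all of it CD68, while PTPRC and CD3E stayed at or near 0. CD14 went the other way, from 0.0777 and 0.102 RPKM to 0.890 and 0.866, and LYZ had 0.945 and 0.423 RPKM in shCtl and 2.34 and 0.129 in shM2-3. That of 4 endothelial markers went from 9.40 and 10.6 to 5.65 and 5.09, most of it CDH5, with VWF near 0 and PECAM1 rising from 0.0376 and 0.0308 to 1.31 and 0.923 RPKM. The part of other cell types in the results was not tested. In bulk RNA, fewer cells that express a gene and less RNA per cell cannot be told apart.

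Most of these genes were lower in shM2-3 cells. Of the 44 tested, 32 passed the test lower, against 36.4% of all genes tested, and 9 passed it higher, against 36.3% of all genes. With the fold limit, 12 were called lower, beside a background of 8.93%, and 4 were called higher, beside 9.24%. The median log2 fold change of the 44 was -0.59, with quartiles of -1.06 and -0.01, while the other 12113 genes had a median of -0.0019. The range ran from -2.28 (ANKRD37) to 3.02 (ANGPTL4). The members together took 3.39% and 3.41% of the counts of the shCtl libraries, but 2.05% and 2.10% of those after shM2-3.

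**Figure D1:**
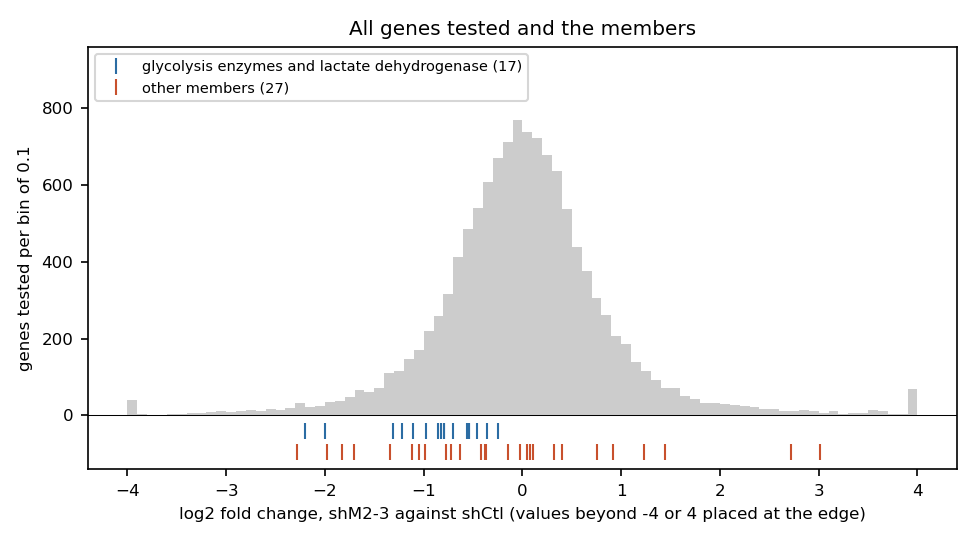
The histogram shows the log2 fold change (x axis, shM2-3 against shCtl, bins of 0.1) of the 12157 genes tested, with the number of genes on the y axis, and the ticks under it mark the 17 genes for glycolytic enzymes and lactate dehydrogenase (blue) and the other 27 members tested (red). The 17 enzyme genes all lie below 0, between -2.20 and -0.25, whereas the other members reach from -2.28 to 3.02.

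All 15 genes for the enzymes from glucose to pyruvate passed the test lower, 5 of them were called lower, and their median log2 fold change was -0.80. With LDHA and LDHB added, these enzymes made up 2.81% and 2.82% of a shCtl library and 1.63% and 1.68% of a shM2-3 library, as shares of all counts. The 16 HIF targets outside glycolysis were mixed, with 8 of 14 tested passing lower (5 called) and 4 passing higher (2 called). The genes of HIF itself and its degradation were also mixed, with 2 lower and 3 higher among 5 tested. The counts that passed stand beside the same background of 36.4% lower and 36.3% higher. For the called counts the background is 8.93% lower and 9.24% higher.

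**Figure D2:**
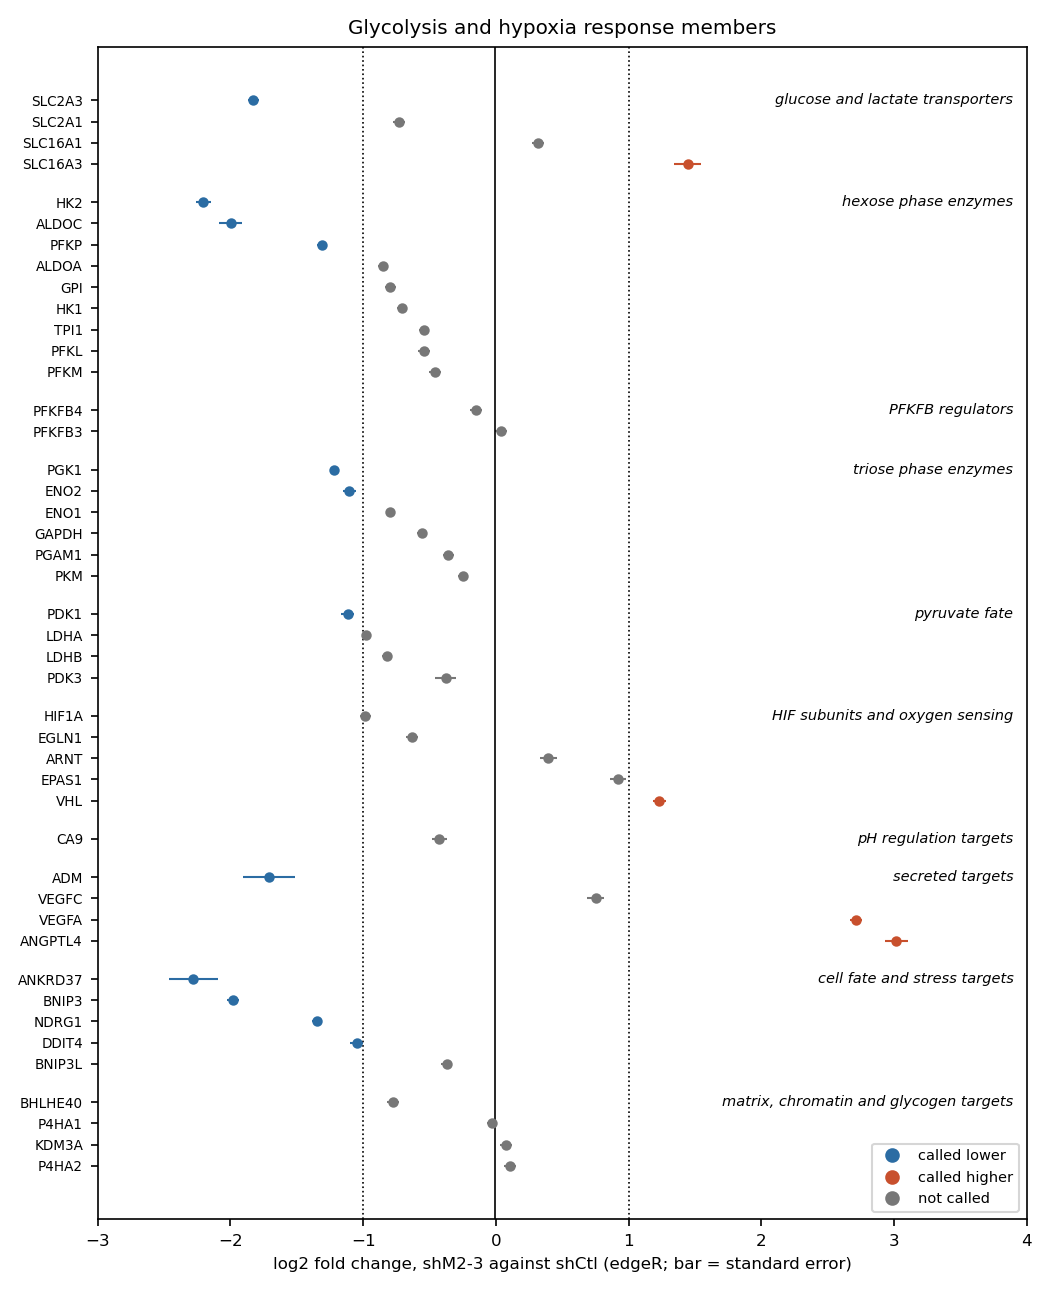
Log2 fold change of each of the 44 members tested (x axis, shM2-3 against shCtl, edgeR), with the standard error as a bar, grouped by role and ordered within each group; dotted lines mark a fold of 2 in either direction. Blue marks the 12 called lower, red the 4 called higher and grey the 28 not called, and every hexose phase, triose phase and pyruvate gene lies left of 0.

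Because HIF acts through a short DNA element, the promoter letters of several members are given first, so that each can be read beside its values. The core letters ACGTG and the related GCGTG were searched on both strands in the 250 bases before each RefSeq start (GRCh38.p14), where the palindrome CACGTG, also the E-box bound by MYC, USF and BHLHE40, counts once on each strand. Windows were found for 41 of the 47 members, 69 windows in all, and none for SLC2A3, SLC16A1, VHL, VEGFA, NDRG1 and BNIP3L. The letters ACGTG stood in at least 1 window of 24 of the 41 members (58.5%), of 29.3% of the genes tested and of 21.7% of all genes with a window. A gene with several starts has more windows and so more chances of a match. Counted over windows, where such genes weigh more, the shares were 39.1% of the members' windows, 22.6% of those of genes tested and 18.5% of all. Among the members called lower, 9 of 10 with a window held ACGTG, and ADM, the exception, held GCGTG. Both members called higher that had a window, SLC16A3 and ANGPTL4, held it too, as did 12 of 26 not called (46.2%). By window, ACGTG stood in 66.7% of 15 for members called lower, 33.3% of 6 for those called higher and 31.1% of 45 for those not called. GCGTG stood in 51.2% of members and 53.9% of genes tested. Many of these genes entered the list as known HIF targets, so the shares describe the list, and a match of letters is not a bound site.

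The stretches below run from 15 bases before the first match to 15 after the last where the window allows, 5′ to 3′ on the strand of the gene, with every ACGTG and GCGTG match of either strand in capitals and positions counted from the start site. For a gene with several windows, the window with the most ACGTG matches is shown. The first group comes from members called lower and shows how closely such letters can lie: BNIP3 carries 5 separate runs of capitals within 74 bases and HK2 4 runs within 159.
BNIP3, chr10:131982008-131982081, minus strand, bases -158 to -85: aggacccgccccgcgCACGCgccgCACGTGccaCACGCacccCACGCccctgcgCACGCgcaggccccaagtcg
ANKRD37, chr4:185396664-185396717, plus strand, bases -177 to -124: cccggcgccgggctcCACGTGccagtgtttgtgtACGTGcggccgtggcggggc
HK2, chr2:74834961-74835119, plus strand, bases -209 to -51: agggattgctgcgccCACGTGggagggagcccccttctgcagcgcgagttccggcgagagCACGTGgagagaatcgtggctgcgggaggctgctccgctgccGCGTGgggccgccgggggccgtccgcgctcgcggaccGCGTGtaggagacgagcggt
PGK1, chrX:78104022-78104084, plus strand, bases -226 to -164: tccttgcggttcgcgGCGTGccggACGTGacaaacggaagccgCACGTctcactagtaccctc
ENO2, chr12:6914447-6914481, plus strand, bases -133 to -99: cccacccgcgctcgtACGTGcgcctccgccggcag

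LDHA is shown as a lactate dehydrogenase gene at the edge of the fold limit, with 3 runs, of which the palindrome CACGTG makes up the first pair. SLC16A3 and ANGPTL4 are shown because they moved the other way while holding the same letters.
LDHA, chr11:18394363-18394509, plus strand, bases -200 to -54: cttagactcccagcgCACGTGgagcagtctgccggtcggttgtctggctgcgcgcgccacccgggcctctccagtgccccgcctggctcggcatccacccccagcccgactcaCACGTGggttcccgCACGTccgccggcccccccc
SLC16A3, chr17:82228959-82229006, plus strand, bases -83 to -36: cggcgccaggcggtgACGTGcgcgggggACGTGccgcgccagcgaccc
ANGPTL4, chr19:8363906-8363940, plus strand, bases -249 to -215: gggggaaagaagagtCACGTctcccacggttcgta

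The transporters at the entry of glucose and the exit of lactate moved apart. SLC2A3, which encodes the high-affinity glucose transporter GLUT3, had an RPKM of 82.8 and 84.4 in the shCtl libraries and 22.6 and 22.4 in the shM2-3 libraries. Its groups were far apart, and the gene fell by 1.83 on the log2 scale (SE 0.0424, edgeR adjusted p = 2.11e-13). SLC2A1, for the widespread transporter GLUT1, fell by 0.73 (SE 0.0464, edgeR adjusted p = 8.15e-09) and was not called. On the exit side, SLC16A3, for the lactate exporter MCT4, had 3.74 and 3.72 RPKM in shCtl and 10.00 and 9.39 in shM2-3. Both shM2-3 libraries stood above both shCtl libraries, and SLC16A3 rose by 1.44 on the log2 scale (SE 0.102, edgeR adjusted p = 2.26e-08). Exons of SLC16A3 overlap those of CSNK1D on the other strand in GENCODE release 44. CSNK1D itself rose by 0.45 (edgeR adjusted p = 1.93e-06), and in unstranded libraries reads of the overlap cannot be assigned between them. SLC16A1, for the monocarboxylate transporter MCT1, rose by 0.32 (SE 0.0456, edgeR adjusted p = 2.87e-05). Summed over the pair of glucose transporters, SLC2A3 made up 66.3% ± 0.403 (SD, n = 2) of the RPKM in shCtl and 47.9% ± 0.650 in shM2-3, and SLC16A3 went from 16.0% ± 0.172 to 29.4% ± 0.491 of its pair.

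In the hexose phase, all 9 genes passed the test lower and 3 were called, with a median of -0.80. Of all genes tested, 36.4% passed lower and 8.93% were called lower. Hexokinase traps glucose as its phosphate, and HK2, the form induced in many tumors, had 49.0 and 48.4 RPKM in shCtl against 9.49 and 10.7 in shM2-3. HK2 fell by 2.20 on the log2 scale (SE 0.0569, edgeR adjusted p = 6.26e-13), which left 21.7% of the control level, and its groups did not overlap. The constitutive HK1 fell by 0.71 (SE 0.0400, edgeR adjusted p = 2.35e-09), so that HK2 supplied 43.5% ± 0.495 (SD, n = 2) of hexokinase RPKM in shCtl and 21.4% ± 1.51 in shM2-3. Phosphofructokinase, the main control point of the route, is built from subunits of 3 genes, of which PFKP had 180 and 179 RPKM in shCtl and 68.8 and 69.4 in shM2-3. The replicates of PFKP lay close together, and it fell by 1.31 (SE 0.0381, edgeR adjusted p = 2.13e-12). PFKM, the muscle subunit, changed least in this phase, with 29.6 and 29.2 RPKM in shCtl and 20.4 in each shM2-3 library, and fell by 0.46 (SE 0.0432, edgeR adjusted p = 4.58e-07). PFKP remained the most abundant subunit per length in both groups, with 67.7% ± 0.529 and then 54.6% ± 0.183 of the summed RPKM.

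Aldolase cleaves the hexose into trioses. ALDOC, the brain-type aldolase and a known HIF target, had 42.3 and 38.3 RPKM in shCtl and 8.90 and 10.4 in shM2-3. Its groups did not overlap, and its log2 fold change was -1.999 (SE 0.0882, edgeR adjusted p = 1.70e-10). ALDOA, the main aldolase here with a mean of 365 RPKM in shCtl and 193 in shM2-3, fell by 0.85. The other hexose phase genes, GPI (-0.80), TPI1 (-0.54) and PFKL (-0.54), stayed within a fold of 2, with edgeR adjusted p-values from 1.30e-09 to 1.47e-07. PFKFB3 and PFKFB4 encode enzymes that set the level of an activator of phosphofructokinase and belong to the classic hypoxia-induced genes. PFKFB4 had 27.8 and 28.4 RPKM in shCtl and 24.6 and 23.8 in shM2-3, with a log2 fold change of -0.15 (SE 0.0450, edgeR adjusted p = 0.00841). PFKFB3 had 21.5 RPKM in each shCtl library and 21.2 and 21.0 in shM2-3, with a log2 fold change of 0.04 (SE 0.0435, edgeR adjusted p = 0.409). The RPKM of PFKFB3 was thus slightly lower and its fitted fold change slightly above 0, and the gene did not pass the test.

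In the triose phase, all 6 genes passed the test lower (36.4% of all genes tested) and 2 were called (8.93% of all), with a median of -0.68. PGK1, the enzyme of the first ATP-forming step, had 586 and 603 RPKM in shCtl and 241 and 248 in shM2-3. PGK1 fell by 1.22 (SE 0.0339, edgeR adjusted p = 1.41e-12), with groups well apart. The GENCODE exons of PGK1 overlap those of its neighbor ATP7A, which went the other way with a log2 fold change of 2.13. ENO2, the neuronal enolase, had 115 and 120 RPKM in shCtl and 54.9 and 49.4 in shM2-3, and fell by 1.10 (SE 0.0501, edgeR adjusted p = 2.30e-10). ENO1, the main enolase, fell by 0.80 from a mean of 1114 to 613 RPKM, and the share of ENO2 in the pair went from 9.54% ± 0.214 (SD, n = 2) to 7.84% ± 0.612. PKM, which makes pyruvate and whose splice forms these gene-level values do not separate, changed least, with 530 and 525 RPKM in shCtl and 416 and 433 in shM2-3. Its log2 fold change was -0.25 (SE 0.0349, edgeR adjusted p = 2.29e-05). GAPDH, often used as a reference gene for RNA levels, had the highest RPKM of the list, 4045 and 4076 in shCtl and 2560 and 2710 in shM2-3, and fell by 0.56 (SE 0.0332, edgeR adjusted p = 3.96e-09). PGAM1 fell by 0.36. GAPDH, PGAM1 and BNIP3 have 65, 13 and 44 named pseudogenes in GENCODE release 44, and their counts are less certain where reads could be split with such copies. LDHA (6), PKM (5), ENO1 (4) and TPI1 (4) have fewer, as do some other members. Exon overlaps are described for some members only. Of the called members, PFKP, ALDOC, PDK1 and NDRG1 also overlap 1 other gene each, as do several members not called.

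**Figure D3:**
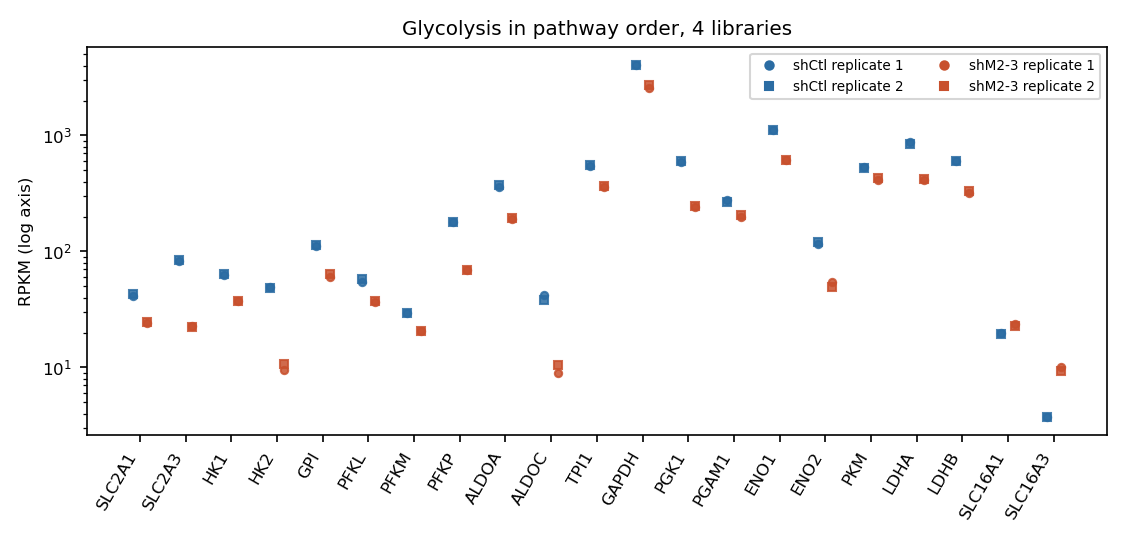
RPKM (y axis, log scale) in each of the 4 libraries for the glucose transporters, the enzymes from hexokinase to pyruvate kinase, lactate dehydrogenase and the lactate transporters, in pathway order on the x axis. Blue points (shCtl) lie above red points (shM2-3) from SLC2A1 to LDHB, and below them for SLC16A1 and SLC16A3.

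At the fate of pyruvate, all 4 genes passed the test lower and 1 was called, with a median of -0.90. The shares over all genes tested were 36.4% and 8.93%. LDHA, which favors the reduction of pyruvate to lactate, had a mean of 862 ± 15.6 RPKM (SD, n = 2) in shCtl and 419 ± 5.13 in shM2-3, a log2 fold change of -0.98 (SE 0.0339, edgeR adjusted p = 1.40e-11). It lay just short of the fold limit and was called under 4 of the alternatives that kept that limit at 2, for example at -1.01 with scaling by total counts. LDHB, whose product favors the opposite direction, fell by 0.82 (SE 0.0374), and its share of lactate dehydrogenase RPKM was 41.0% ± 0.278 in shCtl and 43.6% ± 0.267 in shM2-3. PDK1 inhibits pyruvate dehydrogenase and so keeps pyruvate out of the mitochondrial cycle. PDK1 had 9.91 and 9.35 RPKM in shCtl and 4.37 and 4.11 in shM2-3, and fell by 1.12 (SE 0.0507, edgeR adjusted p = 2.30e-10) with no overlap. Its relative PDK3 had 2.23 and 2.29 RPKM in shCtl and 1.71 and 1.61 in shM2-3, and fell by 0.38 (SE 0.0809, edgeR adjusted p = 0.000863). PDK3 made up 19.02% ± 0.941 of the pair in shCtl and 28.1% ± 0.0539 in shM2-3. This pair leaves out PDK2, with a mean of 5.71 RPKM in shCtl and 6.09 in shM2-3, and PDK4, with 1.52 and 8.00. PDK4 was thus the most abundant of the 4 after shM2-3, and the share of PDK3 among all 4 was not computed.

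The HIF subunits changed in opposite directions. HIF1A, the widespread alpha subunit, had 144 and 137 RPKM in shCtl and 69.1 and 67.1 in shM2-3. HIF1A fell by 0.98 (SE 0.0409, edgeR adjusted p = 9.25e-11), close to the fold limit, and was called lower under 5 of the alternatives that kept that limit at 2, for example at -1.02 without shCtl replicate 2. Its exons overlap those of HIF1A-AS1 and HIF1A-AS3 on the other strand. EPAS1, the alpha subunit of endothelium and of clear cell kidney cancer, rose by 0.92 (SE 0.0637, edgeR adjusted p = 1.94e-08), from a mean of 6.64 ± 0.261 RPKM (SD, n = 2) to 12.02 ± 0.0543. HIF1A remained the more abundant of the pair, and EPAS1 went from 4.50% ± 0.0223 to 15.004% ± 0.323 of their summed RPKM. ARNT, the shared partner, rose by 0.40 (SE 0.0672, edgeR adjusted p = 0.000126).

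Of the oxygen-sensing genes, EGLN1, the main HIF prolyl hydroxylase, fell by 0.63 (SE 0.0442, edgeR adjusted p = 2.18e-08). VHL, the substrate receptor that sends hydroxylated alpha subunits to degradation, had 14.9 and 14.2 RPKM in shCtl and 32.0 and 33.1 in shM2-3. Both shM2-3 libraries of VHL were higher than both shCtl libraries, and it rose by 1.23 (SE 0.0485, edgeR adjusted p = 5.08e-11). An unnamed gene lies across VHL exons on the other strand. EGLN3, a hydroxylase that hypoxia induces in many cells, had 4, 2, 0 and 1 counts in the order shCtl 1, shCtl 2, shM2-3 1, shM2-3 2, too few to compare at this depth. The median over the 5 genes tested was 0.40.

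Among the known HIF targets outside glycolysis, the genes for cell fate and stress were lower as a whole list, at a median of -1.35. The test was passed lower by 5 of 5 (36.4% of all genes tested), and 4 were called lower (8.93% of all). BNIP3 encodes a mitochondrial receptor for mitophagy, and had 383 and 394 RPKM in shCtl and 91.9 and 96.2 in shM2-3. BNIP3 fell by 1.98 (SE 0.0428, edgeR adjusted p = 1.15e-13), leaving 25.4% of the control level. BNIP3L, the related receptor, changed less, with 58.5 and 57.7 RPKM in shCtl and 43.2 and 42.8 in shM2-3 and a log2 fold change of -0.37 (SE 0.0413, edgeR adjusted p = 2.52e-06). The share of BNIP3L in the pair therefore went from 13.0% ± 0.327 (SD, n = 2) to 31.4% ± 0.824. ANKRD37, an ankyrin repeat gene and HIF target, had the lowest fold change of the list, with 13.3 and 15.6 RPKM (243 and 290 counts) in shCtl and 3.004 and 2.69 RPKM (67 and 54 counts) in shM2-3. It fell by 2.28 with a wider error than most members (SE 0.186, edgeR adjusted p = 1.04e-07), and shares exon sequence with UFSP2 on the other strand, which fell by 0.70.

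NDRG1, a stress-induced gene linked to differentiation and metastasis suppression, had 282 and 291 RPKM in shCtl and 108 in each shM2-3 library. NDRG1 fell by 1.35 (SE 0.0368, edgeR adjusted p = 1.14e-12). DDIT4, which encodes the mTOR inhibitor REDD1, had 144 and 147 RPKM in shCtl and 64.4 and 70.2 in shM2-3, and fell by 1.05 (SE 0.0496, edgeR adjusted p = 3.58e-10). In both genes every shM2-3 library stood below every shCtl library. Without shM2-3 replicate 1 the log2 fold change of DDIT4 was -0.98, past the test and short of the fold limit.

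The secreted targets went mostly the other way, at a median of 1.73, with 3 of 4 passing the test higher, 2 called higher and 1 called lower. Over all genes tested, 36.3% passed higher, 9.24% were called higher and 8.93% called lower. VEGFA, the principal signal for new vessels, had 22.6 and 23.7 RPKM in shCtl and 145 in each shM2-3 library. VEGFA rose by 2.72 on the log2 scale (SE 0.0434, edgeR adjusted p = 8.17e-15), or 6.57-fold, with groups far apart. ANGPTL4, an inhibitor of lipoprotein lipase, rose the most of all members, from 7.91 and 10.4 RPKM to 70.1 and 71.7. Its log2 fold change was 3.02 (SE 0.0848, edgeR adjusted p = 1.49e-12), an 8.10-fold rise that ranged from 2.84 to 3.23 on the log2 scale as single libraries were left out. VEGFC, a growth factor of lymphatic vessels, rose by 0.75 (SE 0.0627, edgeR adjusted p = 1.27e-07), and its share of VEGFA and VEGFC together went from 44.4% ± 0.304 (SD, n = 2) to 17.0% ± 0.758. ADM, the vasodilator peptide adrenomedullin, was the exception, with 7.04 and 7.60 RPKM in shCtl and 2.57 and 1.68 in shM2-3. ADM fell by 1.71 with the largest standard error of the list (SE 0.197, edgeR adjusted p = 3.39e-06), from 246 and 270 counts to 110 and 65. VEGFA shares exon sequence with an unnamed gene on the other strand.

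Of the pH regulators, CA9, the tumor-associated carbonic anhydrase often read as a hypoxia marker, had 68.8 and 74.4 RPKM in shCtl and 49.0 and 53.0 in shM2-3. CA9 fell by 0.42 (SE 0.0559, edgeR adjusted p = 1.22e-05), and its groups did not overlap. CA12, the related enzyme, stood below 0.5 RPKM throughout, going from 20 and 13 counts to 49 and 78 after shM2-3. Fitted without the RPKM limit over 16189 genes, an alternative chosen after the data were seen, CA12 had a log2 fold change of 1.78 (SE 0.431, edgeR adjusted p = 0.00248).

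Of the targets that act on matrix, chromatin and glycogen, 4 were tested, of which 1 passed lower and 1 higher and none was called. Over all genes tested, 36.4% passed lower and 36.3% higher. BHLHE40, a transcriptional repressor of the clock and of differentiation, had 48.5 and 47.6 RPKM in shCtl and 26.4 and 27.4 in shM2-3, and fell by 0.77 (SE 0.0461, edgeR adjusted p = 4.06e-09). P4HA2, a collagen prolyl hydroxylase, had 22.0 and 22.8 RPKM in shCtl and 22.7 and 23.3 in shM2-3, so its groups overlapped. Its log2 fold change of 0.11 passed the test narrowly (SE 0.0453, edgeR adjusted p = 0.0493) and did not pass with DESeq2 (adjusted p = 0.127). The related P4HA1 (-0.03, edgeR adjusted p = 0.547) and the histone demethylase KDM3A (0.08, edgeR adjusted p = 0.135) did not pass. PPP1R3C, which targets a phosphatase to glycogen, had 0, 1, 2 and 0 counts in the same order as for EGLN3, under the floor of 3 counts in every library.

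**Figure D4:**
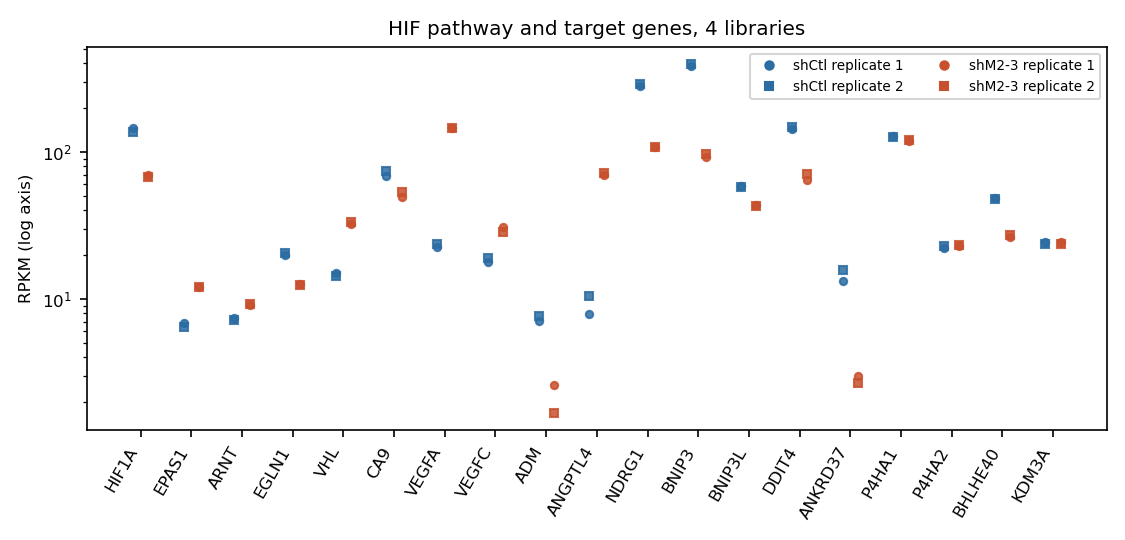
RPKM (y axis, log scale) in each of the 4 libraries for the HIF subunits, the oxygen sensors and the HIF targets outside glycolysis with an RPKM above 1 (x axis). VEGFA and ANGPTL4 lie far higher in the shM2-3 libraries (red) and BNIP3, ANKRD37 and ADM far lower, while P4HA2 and KDM3A overlap with shCtl (blue).

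Within the gene pairs and families above, the balance between relatives can be read beside the level. The share of each named relative in the summed RPKM of the members of its family was computed per library for 15 families, in 13 of which all such members were tested. Relatives that are not members, such as PDK2, PDK4, SLC2A12 and SLC16A7, were left out. Among these 13, the widest moves were those of VEGFC (by -27.4 percentage points), HK2 (-22.1), SLC2A3 (-18.4) and BNIP3L (18.4). The narrowest were those of P4HA2 (1.204), ENO2 (-1.69) and LDHB (2.62). With 2 libraries against 2, the exact two-sided permutation test over libraries gave p = 0.333 for each, the smallest value this design allows, so the shares stand as a description.

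**Figure D5:**
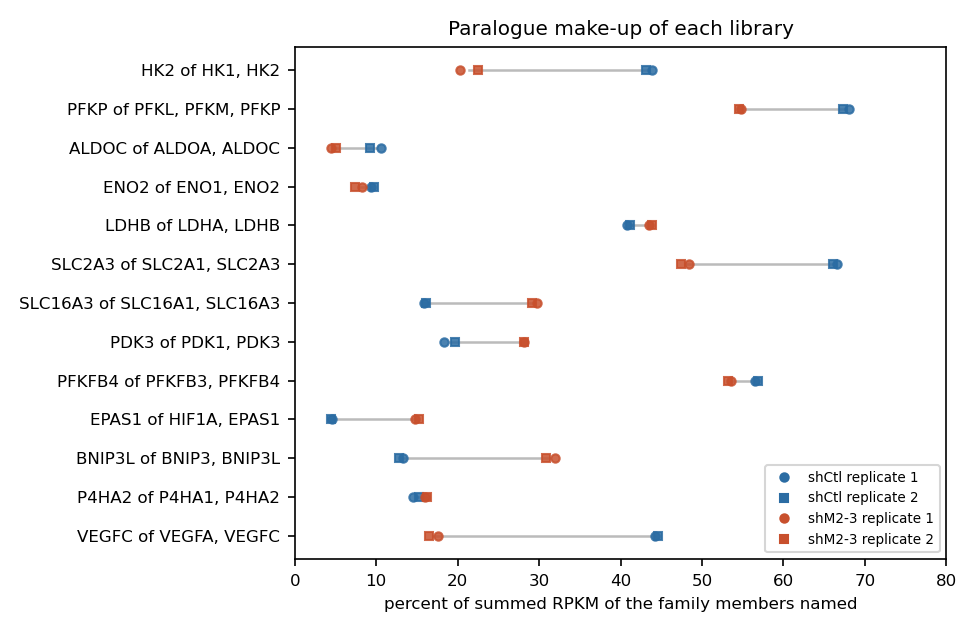
Share (x axis, percent of the summed RPKM of the family members named) of 1 relative in each of 13 gene families, per library, with a grey line joining the group means of shCtl (blue) and shM2-3 (red). HK2, PFKP, SLC2A3 and VEGFC take smaller shares in shM2-3, and SLC16A3, PDK3, EPAS1 and BNIP3L larger ones. Relatives that are not members, PDK2 and PDK4 among them, are left out of the sums.

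A wider list of 118 pathway genes that are not members gave 103 tested, of which 60 passed the test lower (26 called) and 28 passed higher (8 called), beside the same background of 36.4% and 36.3%, or 8.93% and 9.24% with the fold limit. Their median log2 fold change was -0.31. Among 31 further genes of glycolysis and pyruvate, 15 passed lower and 11 higher, with a median of -0.19. The lowest called was LDHC, the testis lactate dehydrogenase (-1.64, SE 0.256, 127 and 120 counts against 41 and 46), and the highest was the glucose transporter SLC2A12, which rose from 1.06 and 0.940 RPKM to 9.23 and 9.74 (log2 fold change 3.31, SE 0.0959). Among 14 further genes of the HIF pathway, 7 passed lower and 6 higher. ARNT2, a relative of ARNT, was the lowest called (-1.80, SE 0.201) and SIAH1, a ubiquitin ligase, the highest (1.04, SE 0.0980). The 51 further hypoxia targets were more often lower, with 33 passing lower (18 called), 9 passing higher (3 called) and a median of -0.54. EDN1, for the vasoconstrictor endothelin, was the lowest called dropping from 385 and 393 counts to 15 and 6 (log2 fold change -5.34, SE 0.246). Leaving out shM2-3 replicate 1 gave -6.05 for EDN1, and leaving out replicate 2 gave -4.90. ENG, the co-receptor endoglin, was the highest called, from 68.3 and 71.3 RPKM to 191 and 192 (1.52, SE 0.0396). Of 7 pentose phosphate genes, which branch from glucose phosphate, 5 passed lower and 2 higher, and none was called. LDHC, ARNT2 and EDN1 exceeded 1 RPKM in the shCtl libraries only, so they were tested through the group where they were high. With an RPKM above 1 required in all 4 libraries, 20 genes of the wider list were called lower and 7 higher. Of all 10696 genes tested that way, 695 were called lower and 707 higher.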

How the data were processed

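RNA-seq libraries of ES-2 cells with shCtl (n = 2) or shM2-3 (n = 2) were used, grouped by their labels. The authors aligned reads to hg38 (HISAT2 2.0.4 and Partek 7.18 in the submitters' processing notes), required a mapping quality of at least 10, left out ambiguous reads, and counted reads per RefSeq gene. The deposited estimated counts are not normalized, need not be whole and were rounded. The deposited RPKM values were used for levels and paralogue shares. The fit took every gene whose RPKM exceeded 1 in 1 library or more (edgeR 4.0.16 in R 4.3.3, TMM scaling, quasi-likelihood test, Benjamini-Hochberg adjustment, no block). The biological coefficient of variation was 0.0485. The SE is the log2 fold change divided by the square root of F. With 2 libraries per group an SD is rough, and genes with few counts also carry counting error. The fit was tested on simulated counts with known changes.

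Alternatives were DESeq2 1.42.0, limma 3.58.1 on log2(RPKM + 0.1) and log2(RPKM + 1), total counts in place of TMM, other filters and fold limits, glmTreat, a replicate block and leaving out each library. Values per library are given for each called member and for the lowest and highest member of each role list, and of the wider pathway lists the lowest and highest called gene. The members, role lists, pathway lists and markers were chosen with earlier results of these data known. Promoter windows came from RefSeq (GRCh38.p14) and gene positions and overlaps from GENCODE release 44 on hg38. HK3, PKLR, FBP1, FBP2 and MUC16 were not analysed here, and some listed genes are not reported here.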

Additional observations from a re-analysis of the deposited data

How the results depend on the processing

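Each group held 2 libraries, and calls near a limit moved with the processing. At a fold of 1.5, 22 members were called lower and 6 higher, beside 2302 and 2296 of all 12157 genes. With glmTreat, 21 members were called lower and 6 higher, beside 1586 and 1632 of all genes. Of the wider pathway list, 40 were called lower and 17 higher at a fold of 1.5, and 33 and 15 with glmTreat. Limma with 0.1 or 1 added to the RPKM called 5 of that list higher, beside 953 and 596 of all genes. The median of the members was -0.63 with total counts in place of TMM, -0.66 with limma and 0.1, and -0.64 with limma and 1. The median of all genes was lowest, at -0.07, with limma and 0.1. No member that passed the test changed direction. LDHA and HIF1A were called lower with total counts, with limma and without the RPKM limit, HIF1A also without shCtl replicate 2 (-1.02), and DDIT4 was not called without shM2-3 replicate 1 (-0.98). P4HA2 lost the test with DESeq2, total counts, limma, no RPKM limit and without any of 3 libraries, and P4HA1 passed it with limma only. Over all genes, 695 were called lower and 707 higher with an RPKM above 1 in all 4 libraries, 724 and 596 with limma and 1, and 2302 and 2296 at a fold of 1.5. The labels give the groups the same replicate numbers without saying that they pair the cultures, and same-numbered libraries did not deviate together (correlation -0.0287). With the replicate block, 12 members were called lower and 4 higher, and 1079 and 1123 of all genes.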

Other observations

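The genes named here, around the entry of pyruvate into mitochondria and from related routes, were chosen after their values were seen, and stand for no list. MPC1 and MPC2 form the mitochondrial pyruvate carrier. MPC1 had 12.8 and 15.8 RPKM in shCtl and 5.41 and 4.81 in shM2-3, and fell by 1.42 on the log2 scale (SE 0.133, edgeR adjusted p = 4.48e-07). MPC2 fell by 0.73 (SE 0.0944, edgeR adjusted p = 1.06e-05). Of the pyruvate dehydrogenase complex, DLAT fell by 0.99, PDHX by 0.72, PDHA1 by 0.64 and DLD by 0.52, while PDHB had a log2 fold change of -0.07 and did not pass the test (edgeR adjusted p = 0.318). PDK4, a kinase that inhibits this complex, went the opposite way to PDK1 and PDK3, from 1.55 and 1.49 RPKM to 7.63 and 8.37 (log2 fold change 2.46, SE 0.112, edgeR adjusted p = 2.39e-10). PDK2 had a log2 fold change of 0.16 and did not pass (edgeR adjusted p = 0.116). Of the genes for the opposing phosphatase, PDP2 fell by 1.19 and PDP1 by 0.21, and its regulatory subunit PDPR rose by 0.27.

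BSG, the chaperone that brings the lactate transporters to the cell surface, rose by 0.52 (SE 0.0357, edgeR adjusted p = 1.88e-08), from a mean of 377 ± 12.3 RPKM (SD, n = 2) in shCtl to 516 ± 1.82 in shM2-3. In the pentose phosphate route, PGD had a mean of 80.8 RPKM in shCtl and 46.5 in shM2-3 and fell by 0.73 (SE 0.0507).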
